A study of Mus musculus with 6 samples.

Results

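The TNF superfamily ligands are a set of related cytokine genes, of which 10 were chosen by name: *Tnf*, *Lta*, *Ltb*, *Fasl*, *Tnfsf8*, *Tnfsf10*, *Tnfsf11*, *Tnfsf14*, *Cd70*, and *Cd40lg*. All 10 were among the 57126 genes of the deposited count table, and 9 of them had at least 1 count in at least 3 samples and could be tested. *Cd70* did not pass this filter. RNA was sequenced from 6 samples of mouse CD8+ T cells from OT-I mice, whose transgenic T cell receptor recognizes an ovalbumin peptide, so that all 6 samples carry the same receptor. The cells were isolated by magnetic separation from lymph nodes and spleens, stimulated in culture with nano-aAPC, which are nanoparticles that present the peptide on MHC class I and carry an antibody to CD28, and harvested on day 6. TEff samples (n = 3) were expanded in IL-2 (5 ng/ml), and TRM-like samples (n = 3) in IL-2 (5 ng/ml), IL-15 (100 ng/ml), and TGF-β (5 ng/ml). The doses follow the expansion methods, and the 2 additional cytokines were given together, so that their effects cannot be told apart. No source used here says that the replicates came from separate animals or cultures, and the p-values measure the spread between these samples.

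Ligands of the TNF superfamily are made mostly as type II membrane proteins that assemble into trimers, act on neighboring cells from the cell surface, and in several cases are released by proteases. Their receptors either carry a death domain, which can start caspase signaling, or bind TRAF adaptor proteins, which lead to NF-κB and kinase signaling. CD8+ T cells use the death ligands FasL and TRAIL, together with TNF and lymphotoxins, as effector molecules beside the cytotoxic granules, and the other ligands act in costimulation, in lymphoid tissue, and in bone.

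Total counts on genes were 18319013 to 21960760 in TEff samples and 21178756 to 23622621 in TRM-like samples. Levels are given as CPM, the counts scaled by the effective library size. A count was found on 35130 genes in TRM-like replicate 1 and 35559 in TRM-like replicate 2, against 24229 to 24908 genes in each of the remaining 4 samples. TRM-like replicate 3 stood apart from the other TRM-like samples. A chi-square divided by the number of genes, for which counting noise alone gives values near 1, was 7.26 for TRM-like replicates 1 and 2. It was 96.3 and 112 for TRM-like replicate 3 against these, 41.9, 82.4, and 37.4 for it against TEff replicates 1, 2, and 3, and 3.73 to 26.1 among the TEff samples. Ligand values are therefore given with and without this library where it changed a call or a direction. *Cd8a* was at 422 to 448 CPM in TEff and 927 to 989 CPM in TRM-like samples, with a log2 fold change (TRM-like minus TEff) of 1.14 (edgeR adjusted p = 0.00219), and *Cd4* was at most 0.111 CPM. The 6 T cell markers, *Cd8a* included, summed to 1919 to 2063 CPM in TEff and 2429 to 3323 CPM in TRM-like samples. They did not move together. *Cd2* was at -0.64, and *Cd3e*, *Trac*, *Cd8b1*, and *Cd3g* were at 0.10, 0.13, 0.50, and 0.81 (edgeR adjusted p = 0.0504, 0.809, 0.834, 0.0880, and 0.194). The summed level of the 4 NK cell markers was 9.97 to 22.3 CPM in TEff and 0.0922 to 8.98 CPM in TRM-like samples, nearly all of it *Klrb1c*. These markers did not move together. *Klrb1c* and *Klra4* were at -1.50 and -1.79, and *Ncr1* and *Klra8* at 2.10 and 2.06 (edgeR adjusted p = 0.465, 0.417, 0.490, and 0.559). The sum was 1.93 to 3.54 and 0.784 to 2.40 CPM for the 8 myeloid markers. It was 5.94 to 6.78 and 7.29 to 10.9 CPM for the 5 B cell markers, most of it *Cd79b*. The 3 markers of CD4+ T cells summed to 35.7 to 41.4 and 18.2 to 25.9 CPM, nearly all of it *Zbtb7b*. No marker in these lists was at 0 in all 6 samples. *Ms4a1*, *Pax5*, *Lyz2*, *Clec9a*, and *Siglech* were at 0 in all TEff samples and in TRM-like replicate 3. Counts of *Pax5*, *Clec9a*, and *Siglech* lay in TRM-like replicates 1 and 2, and those of *Ms4a1* and *Lyz2* in TRM-like replicate 2 alone. The part of other cells in the ligand values was not tested.

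The transcripts of 2 of the 10 ligand genes were higher in TRM-like than in TEff cells, and none was lower at the thresholds used. *Tnfsf11*, which encodes RANKL, was 2.31-fold higher, and *Tnfsf10*, which encodes TRAIL, was 2.54-fold higher by the mean CPM. These were the 2 differentially expressed genes (DEGs) among the ligands. A DEG had a log2 fold change beyond 0.58 in either direction and an adjusted p below 0.05, by the quasi-likelihood test of edgeR with p-values adjusted over all genes by the method of Benjamini and Hochberg. Among the 26154 genes tested, 786 were DEGs, or 3.01%, with 398 higher and 388 lower in TRM-like cells. At an unadjusted p below 0.05 were 3 of the 9 ligand genes tested, beside 14.8% of all genes. The median log2 fold change (TRM-like minus TEff) was 0.43 over the 9 ligand genes tested and 0.02 over all genes tested, and it was 0.22 and 0.02 without TRM-like replicate 3. Without that library, 3579 of 25478 genes were DEGs, or 14.0%. In 4 ligand genes the CPM values of the 2 groups did not overlap, as in 20.3% of all genes tested, with *Tnf*, *Tnfsf10*, and *Tnfsf11* above and *Tnfsf8* below in TRM-like cells. In bulk samples such as these, fewer cells of a type and less RNA per cell cannot be told apart.

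**Figure D1:**
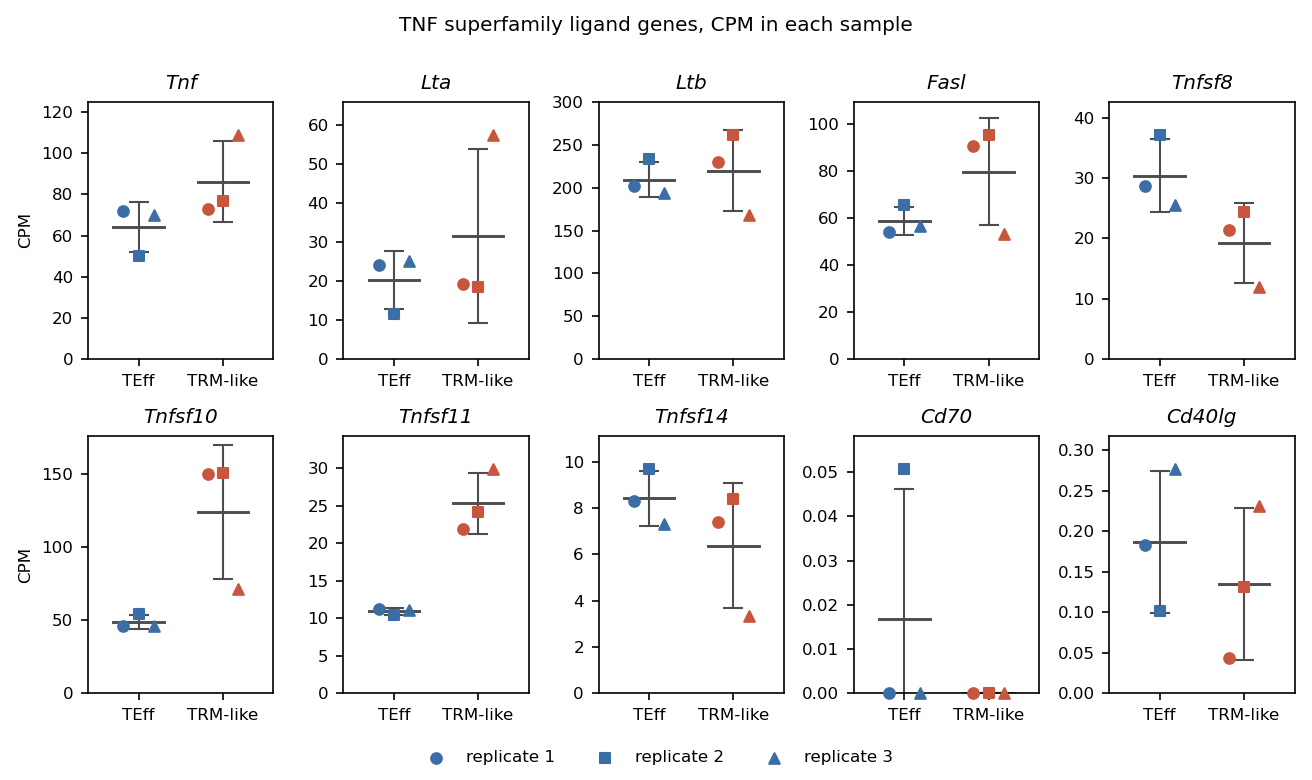
CPM (vertical axes, linear and starting at 0) of the 10 ligand genes in each TEff (blue) and TRM-like (red) sample, where the marker shape gives the replicate number, horizontal lines are group means, and bars are SD (n = 3). All 3 TRM-like samples lie above all TEff samples for *Tnf*, *Tnfsf10*, and *Tnfsf11*, while TRM-like replicate 3 lies apart from replicates 1 and 2 for *Lta*, *Fasl*, and *Tnfsf10*.

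*Tnf*, *Lta*, and *Ltb* lie next to each other on chromosome 17 within the major histocompatibility complex. TNF and the secreted lymphotoxin-α bind the same TNF receptors, and lymphotoxin-β anchors lymphotoxin-α to the membrane in a complex that binds the lymphotoxin-β receptor. On the GRCm39 build, *Ltb* is at chr17:35413382-35415296 on the plus strand, *Tnf* at chr17:35418357-35420983 on the minus strand, and *Lta* at chr17:35422141-35424327 on the minus strand.

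*Tnf* was at 72.1, 50.1, and 69.8 CPM in TEff replicates 1 to 3 and at 73.0, 76.9, and 109 CPM in TRM-like replicates 1 to 3. The groups did not overlap, but TRM-like replicate 1 was barely above TEff replicate 1, and TRM-like replicate 3 was the highest. The mean was 64.0 ± 12.1 CPM in TEff and 86.2 ± 19.6 CPM in TRM-like cells (SD, n = 3). The log2 fold change was 0.43 (SE 0.20), and *Tnf* was not a DEG (edgeR adjusted p = 0.366). Without TRM-like replicate 3 the log2 fold change was 0.22 (edgeR adjusted p = 0.332).

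*Lta* was at 24.1, 11.7, and 25.1 CPM in the TEff samples and at 19.2, 18.4, and 57.4 CPM in the TRM-like samples. TRM-like replicate 3 was the highest of the 6, and the other TRM-like samples lay among the TEff samples. The log2 fold change was 0.64 (SE 0.45, edgeR adjusted p = 0.589), and without TRM-like replicate 3 it was -0.12 (adjusted p = 0.775), so the direction rests on that library. The adjusted p was 0.00951 in the fit with no filter on low counts. That fit shrank every gene's spread to a common trend, so it sets aside the spread of *Lta* itself. *Tnf* exceeded *Lta* per gene length in all 6 samples. The ratio of their RPKM, the CPM divided by the length of the gene model in kilobases, was 2.35 to 3.61 in TEff samples, 3.22 and 3.53 in TRM-like replicates 1 and 2, and 1.60 in TRM-like replicate 3.

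*Ltb* was the most abundant ligand transcript per gene length in every sample. It was at 202, 233, and 194 CPM in the TEff samples and at 230, 261, and 168 CPM in the TRM-like samples. The groups overlapped, with TRM-like replicates 2 and 3 as the highest and the lowest of all. The log2 fold change was 0.07 (SE 0.18, edgeR adjusted p = 0.895), and it was -0.08 without TRM-like replicate 2. The protein-coding genes on the outer sides of the cluster, *Lst1* beside *Ltb* and *Nfkbil1* beside *Lta*, had log2 fold changes of 0.10 and 0.47 (adjusted p = 0.880 and 0.317). *Nfkbil1* was a DEG without TRM-like replicate 3, at 0.65 (adjusted p = 0.00198), and *Lst1* was at -0.06 without TRM-like replicate 2. *Ltb* overlaps the microRNA gene *Mir6973a* on the same strand, on which a mean of 24.8 reads was counted, and an antisense noncoding gene, and the strand setting of the counting is not given in the sources used here.

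FasL and TRAIL are the death ligands of the family. FasL binds Fas and TRAIL binds its death receptor, encoded in the mouse by *Tnfrsf10b*, and both receptors carry a death domain. *Fasl* is at chr1:161608258-161616075 on the minus strand and *Tnfsf10* at chr3:27371033-27396576 on the plus strand.

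*Fasl* was at 54.0, 65.7, and 56.8 CPM in the TEff samples and at 90.8, 95.3, and 53.5 CPM in the TRM-like samples. TRM-like replicates 1 and 2 were above all TEff samples, and TRM-like replicate 3 was the lowest of the 6. With all samples the log2 fold change was 0.44 (SE 0.21) and *Fasl* was not a DEG (edgeR adjusted p = 0.391). Without TRM-like replicate 3 it was 0.65 (SE 0.11) and *Fasl* was a DEG (adjusted p = 0.00118), which makes 3 of the 9 ligand genes DEGs in that fit, beside 14.0% of all genes.

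*Tnfsf10* was at 45.8, 54.4, and 46.3 CPM in the TEff samples and at 150.2, 151, and 71.4 CPM in the TRM-like samples. All TRM-like samples were above all TEff samples, replicates 1 and 2 by far and replicate 3 by less. The mean rose from 48.8 ± 4.82 to 124 ± 45.7 CPM (SD, n = 3), with a log2 fold change of 1.35 (SE 0.27, edgeR adjusted p = 0.0298). Each of the 6 fits with a sample left out gave a log2 fold change between 1.18 and 1.62. The adjusted p was above 0.05 without TEff replicate 1 (0.173), TEff replicate 2 (0.117), TEff replicate 3 (0.169), TRM-like replicate 1 (0.0880), or TRM-like replicate 2 (0.109), and it was 4.24e-07 without TRM-like replicate 3. *Fasl* and *Tnfsf10* were thus lowest in replicate 3 among the TRM-like samples, as were *Ltb*, *Tnfsf8*, and *Tnfsf14*. *Tnf* and *Lta* were highest in replicate 3 among them, as were *Tnfsf11* and, at 5 counts, *Cd40lg*.

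RANKL, encoded by *Tnfsf11*, binds RANK and is best known for driving the formation of osteoclasts and of lymph nodes, and activated T cells also make it. Osteoprotegerin, encoded by *Tnfrsf11b*, is a soluble decoy receptor that captures RANKL. *Tnfsf11* is at chr14:78514885-78545490 on the minus strand.

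*Tnfsf11* was at 11.2, 10.4, and 11.2 CPM in the TEff samples and at 21.9, 24.1, and 29.8 CPM in the TRM-like samples. The TEff samples were close to each other, and every TRM-like sample was well above them, TRM-like replicate 3 included. The mean rose from 10.9 ± 0.480 to 25.3 ± 4.08 CPM (SD, n = 3), with a log2 fold change of 1.21 (SE 0.16, edgeR adjusted p = 0.00420). It was a DEG under all 14 alternatives, in which the log2 fold change was 1.06 to 1.30 and the largest adjusted p was 0.0393. It was the only ligand gene called a DEG in every one of the 6 fits with a sample left out.

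The receptors of RANKL were scarce. *Tnfrsf11a*, which encodes RANK, had 0 counts in all TEff samples and 15, 10, and 16 counts in the TRM-like samples. With 3 counts over the group taken as the limit for a count of 0, pooled CPM was at least 12.1-fold higher in TRM-like cells. This limit covers counting error only, not the spread between samples. The level in TRM-like samples was 0.437 to 0.738 CPM. The gene passed the filter only through the TRM-like samples, so no test of it is given. *Tnfrsf11b* had 26, 24, and 14 counts in the TEff samples and 1, 3, and 5 counts in the TRM-like samples. The groups did not overlap, and the log2 fold change was -2.94 (SE 0.52, edgeR adjusted p = 0.0184). The ratio of *Tnfsf11* to *Tnfrsf11b*, in RPKM, was 10.8 to 18.2 in TEff samples and 163 to 634 in TRM-like samples, where it rests on 1 to 5 counts of *Tnfrsf11b* per sample. The call of *Tnfrsf11b* was lost without TEff replicate 1, 2, or 3 or TRM-like replicate 2 (adjusted p = 0.111, 0.0924, 0.0604, and 0.0789).

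The 250 bases upstream of the outermost annotated start of the DEGs *Tnfsf11* and *Tnfsf10* are shown here to place these genes in the genome, beside those of *Tnf*, which was not a DEG. They were read from the GRCm39 assembly, from chr14:78545491-78545740 (minus strand), chr3:27370783-27371032 (plus strand), and chr17:35420984-35421233 (minus strand), and end at the base before the start. Capitals mark matches, on either strand, to a TATA box (TATAAA), an AP-1 site (TGANTCA), an NFAT core (GGAAA), or a SMAD core (CAGAC), so that a match on the opposite strand reads as the reverse complement. The NF-κB site was searched by its consensus, which can contain the NFAT core, and no match to it lies in the windows of the 10 ligand genes.
Tnfsf11 upstream: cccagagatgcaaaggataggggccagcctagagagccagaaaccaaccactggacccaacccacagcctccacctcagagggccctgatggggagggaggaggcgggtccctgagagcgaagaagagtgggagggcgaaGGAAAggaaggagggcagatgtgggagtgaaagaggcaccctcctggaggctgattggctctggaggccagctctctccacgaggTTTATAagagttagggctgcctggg
Tnfsf10 upstream: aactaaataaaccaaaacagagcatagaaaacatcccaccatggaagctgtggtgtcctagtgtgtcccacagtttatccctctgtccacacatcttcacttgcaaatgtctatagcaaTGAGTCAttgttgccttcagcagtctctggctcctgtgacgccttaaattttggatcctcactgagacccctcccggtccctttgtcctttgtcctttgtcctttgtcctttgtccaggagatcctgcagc
Tnf upstream: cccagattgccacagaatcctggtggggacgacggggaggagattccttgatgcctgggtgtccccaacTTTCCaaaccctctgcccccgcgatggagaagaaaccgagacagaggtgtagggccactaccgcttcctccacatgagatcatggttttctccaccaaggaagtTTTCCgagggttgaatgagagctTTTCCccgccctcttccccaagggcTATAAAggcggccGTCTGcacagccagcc

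Counted from the start, with the base before it as -1, *Tnfsf11* has a TATA match at -25 to -20 on the opposite strand and an NFAT match at -110 to -106. *Tnfsf10* has an AP-1 match at -131 to -125, and *Tnf* has a TATA match at -29 to -24, a SMAD match at -16 to -12, and 3 NFAT matches. Over all 10 ligand genes, the TATA match was present in 3 (*Tnf*, *Lta*, and *Tnfsf11*), beside 12.5% of the same windows of 21770 protein-coding genes. The AP-1 match was present in 2 (*Tnfsf10* and *Tnfsf14*), beside 6.5%, and the SMAD match in 5 (*Tnf*, *Lta*, *Tnfsf14*, *Cd70*, and *Cd40lg*), beside 41.9%. The NFAT match was present in 8, all but *Ltb* and *Tnfsf10*, beside 58.6%, and the NF-κB match in 0, beside 3.9%. Neither DEG among the ligands had a SMAD match in this window, a match that 41.9% of the windows of all protein-coding genes had. A match gives only the letters in these 250 bases and does not show a binding site.

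**Figure D2:**
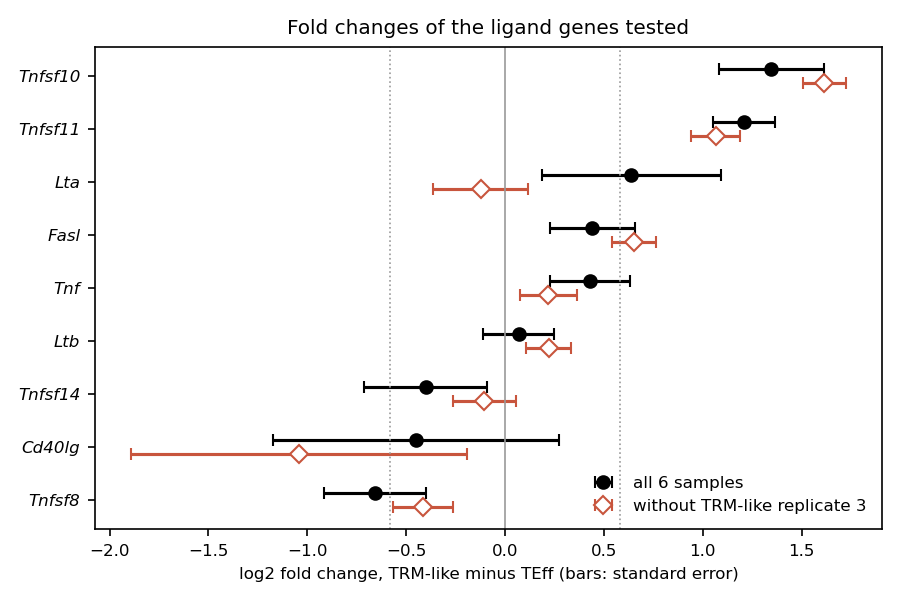
Log2 fold changes (TRM-like minus TEff) with their standard errors for the 9 ligand genes tested, from all 6 samples (black circles) and without TRM-like replicate 3 (open diamonds), where dotted lines mark 0.58 in each direction. *Tnfsf10* and *Tnfsf11* lie beyond 0.58 in both fits, while *Lta* moves from 0.64 to -0.12 and *Fasl* from 0.44 to 0.65.

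The remaining ligands act mainly in costimulation. CD30L (*Tnfsf8*), LIGHT (*Tnfsf14*), CD70, and CD40L bind CD30, HVEM, CD27, and CD40. *Tnfsf8* is at chr4:63749542-63779592 and *Tnfsf14* at chr17:57496451-57501177, with *Cd70* near the latter at chr17:57452997-57456777, all on the minus strand, and *Cd40lg* is at chrX:56257405-56269902 on the plus strand.

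*Tnfsf8* was at 28.6, 37.1, and 25.5 CPM in the TEff samples and at 21.4, 24.5, and 11.9 CPM in the TRM-like samples. All TRM-like samples were below all TEff samples, TRM-like replicate 3 the furthest. The mean was 30.4 ± 6.02 CPM in TEff and 19.3 ± 6.56 CPM in TRM-like cells (SD, n = 3). The log2 fold change was -0.66 (SE 0.26), the only one beyond 0.58 in the lower direction among the 9, and it was not a DEG (edgeR adjusted p = 0.279). Without TRM-like replicate 3 it was -0.42 (adjusted p = 0.0737), and with no filter it was a DEG at -0.67 (adjusted p = 0.00609). The fit with no filter shrank every gene's spread to a common trend and so sets aside that of *Tnfsf8* itself.

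*Tnfsf14* was at 8.32, 9.67, and 7.29 CPM in the TEff samples and at 7.41, 8.39, and 3.32 CPM in the TRM-like samples. The groups overlapped, and TRM-like replicate 3 was the lowest. The log2 fold change was -0.40 (SE 0.31, edgeR adjusted p = 0.620), and -0.10 without TRM-like replicate 3. An antisense noncoding gene overlaps *Tnfsf14*, so its reads depend on the strand setting too.

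*Cd40lg*, which is best known from CD4+ T cells, had 4, 2, and 5 counts in the TEff samples and 1, 3, and 5 in the TRM-like samples, and a difference was not detectable at this depth (log2 fold change -0.45, SE 0.72, edgeR adjusted p = 0.834). *Cd70* had 1 count in TEff replicate 2 and 0 in the other 5 samples, which in TRM-like cells allows up to 0.0444 CPM by a limit of 3 counts over the group. This limit covers counting error only.

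Per gene length, the order of the mean levels in TEff cells was *Ltb* (178 RPKM), *Tnf* (39.0), *Fasl* (30.4), *Lta* (14.7), *Tnfsf10* (9.27), *Tnfsf8* (7.99), *Tnfsf11* (4.89), *Tnfsf14* (4.56), *Cd40lg* (0.150), and *Cd70* (0.0200). Neighbors whose samples overlapped in this order were *Tnf* and *Fasl*, *Lta* and *Tnfsf10*, *Tnfsf10* and *Tnfsf8*, and *Tnfsf11* and *Tnfsf14*. In TRM-like cells the mean RPKM was 187 for *Ltb*, 52.6 for *Tnf*, 41.2 for *Fasl*, 23.6 for *Tnfsf10*, 22.9 for *Lta*, 11.3 for *Tnfsf11*, 5.06 for *Tnfsf8*, and 3.45 for *Tnfsf14*. *Tnfsf10* thus stood above *Lta* and *Tnfsf11* above *Tnfsf8* by the means. The samples of *Tnfsf11* and *Tnfsf8* did not overlap in TRM-like cells, whereas those of *Tnf* and *Fasl*, *Fasl* and *Tnfsf10*, *Tnfsf10* and *Lta*, *Lta* and *Tnfsf11*, and *Tnfsf8* and *Tnfsf14* did.

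The summed RPKM of the 10 genes was 286, 301, and 279 in the TEff samples and 349, 382, and 310 in the TRM-like samples. All TRM-like samples were above all TEff samples, but TRM-like replicate 3 (310) was only narrowly above TEff replicate 2 (301). The largest part of each sum was *Ltb*, whose log2 fold change was 0.07. *Ltb* made up 61.5 ± 3.72% of this sum in TEff and 53.4 ± 6.46% in TRM-like cells (SD, n = 3). The share of *Tnfsf10* was 3.21 ± 0.203% and 6.68 ± 2.03%, and that of *Tnfsf11* was 1.70 ± 0.133% and 3.31 ± 0.855%. *Lta* took 13.4% in TRM-like replicate 3, against 3.97% and 3.48% in TRM-like replicates 1 and 2. These shares are relative, so that a rise of any member lowers the shares of the others.

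**Figure D3:**
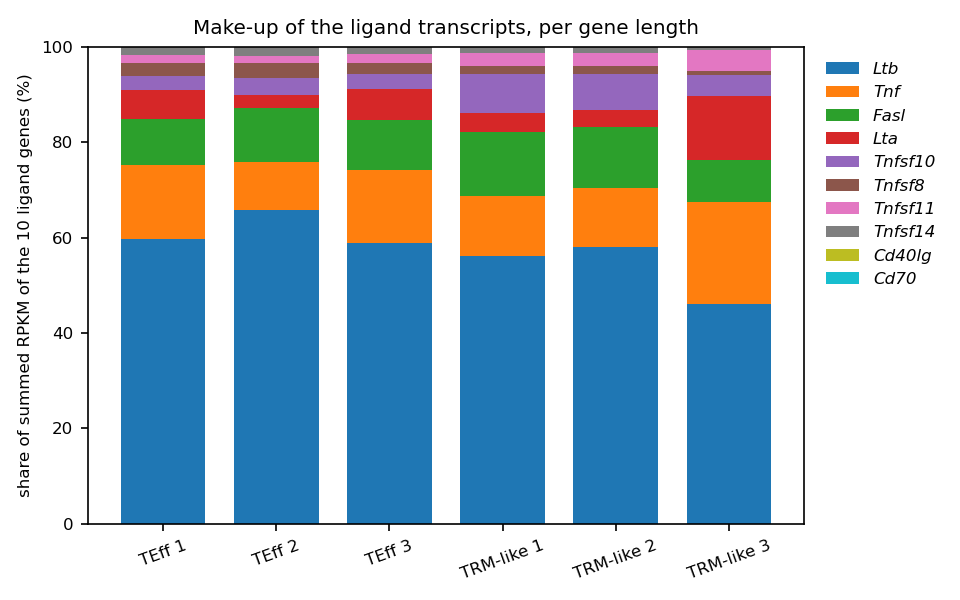
Share of each ligand gene (colors) in the summed RPKM of the 10 ligand genes, in percent, for each of the 6 samples. *Ltb* takes 46.0% to 65.8% of every bar, *Tnfsf10* is widest in TRM-like replicates 1 and 2, and *Lta* is widest in TRM-like replicate 3.

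The other 8 ligand genes of the superfamily were scarce, and edgeR called 0 of the 7 tested, beside 3.01% of all genes. At an unadjusted p below 0.05 there was 1 of the 7, beside 14.8% of all genes. DESeq2 and limma-voom also called 0, beside 4.83% and 2.82% of all genes. Their median log2 fold change was -0.21, beside 0.02 over all genes tested. *Tnfsf9* (4-1BBL) had 41 to 49 counts in TEff and 39 to 48 in TRM-like samples, with a log2 fold change of -0.21 (edgeR adjusted p = 0.766). *Tnfsf4* (OX40L) had 19, 10, and 15 counts in TEff and 8, 9, and 9 in TRM-like samples, which did not overlap, with a log2 fold change of -0.92 (adjusted p = 0.311). *Tnfsf13b* (BAFF) had 9 to 20 and 17 to 35 counts, with a log2 fold change of 0.67 (adjusted p = 0.482). *Tnfsf12* (TWEAK) had 3 counts in TEff replicate 3 and 0 in the other TEff samples, and 11, 11, and 1 in the TRM-like samples, and it was a DEG only without TRM-like replicate 3. *Tnfsf13*, *Tnfsf15*, and *Eda* had at most 6 counts in any sample, and *Tnfsf18* did not pass the filter.

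Of the 28 genes of the receptor superfamily, 25 passed the filter. *Tnfrsf11a* and *Eda2r* passed only through the group in which they had counts and are left out of the receptor counts that follow. Of the other 23 genes, 2 were higher and 2 were lower in TRM-like cells, beside 3.03% called among the 25784 genes tested with a count in both groups. The DEGs were *Tnfrsf11b*, *Tnfrsf1b*, *Tnfrsf13c*, and *Tnfrsf25*. The groups did not overlap in 6 receptor genes that were above and 7 that were below in TRM-like cells, beside 19.2% of these genes. The median log2 fold change of the 23 was 0.02, beside 0.01. When a sample was left out, 0 receptor genes were DEGs without TEff replicate 1, TEff replicate 3, or TRM-like replicate 2, beside 1.04%, 1.08%, and 1.59% of all genes tested. The number was 1 without TEff replicate 2 and 2 without TRM-like replicate 1, beside 1.43% and 1.80%, and it was 9 without TRM-like replicate 3, beside 14.0%.

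The receptors of TNF and lymphotoxin-α moved unequally. *Tnfrsf1b*, which encodes the TRAF-binding TNFR2, was at 81.2, 77.3, and 82.4 CPM in the TEff samples and at 158, 166, and 112 CPM in the TRM-like samples. The groups did not overlap, with a log2 fold change of 0.86 (SE 0.17, edgeR adjusted p = 0.0280). Its adjusted p was 0.104 to 0.161 without any 1 of the samples other than TRM-like replicate 3, and 1.63e-05 without the latter. *Tnfrsf1a*, which encodes the death domain receptor TNFR1, was at 16.8 ± 2.54 and 17.0 ± 5.10 CPM (SD, n = 3), with a log2 fold change of 0.02 (adjusted p = 0.981) that was below 0 in 5 alternatives. *Ltbr*, the receptor of the membrane lymphotoxin complex and of LIGHT, had 1 count in all TEff samples together and 2 to 4 counts in each TRM-like sample.

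The receptors of the death ligands were low in CPM and overlapped between the groups. *Fas* was at 3.82 ± 0.289 CPM in TEff and 3.48 ± 0.841 CPM in TRM-like cells (SD, n = 3), with a log2 fold change of -0.13 (edgeR adjusted p = 0.851) and 0.04 without TRM-like replicate 3. *Tnfrsf10b* was at 3.11 ± 0.367 and 2.27 ± 0.739 CPM, with a log2 fold change of -0.46 (adjusted p = 0.522). Without TRM-like replicate 3 it was a DEG, at -0.74 (adjusted p = 0.0498). *Tnfsf10* and its receptor gene differed in the sign of their fold changes, but with all samples *Tnfrsf10b* was not a DEG.

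Among the receptors of the costimulatory ligands, *Tnfrsf8* (CD30) had 84, 16, and 49 counts in the TEff samples and 7, 8, and 0 in the TRM-like samples. The TEff samples were spread widely, and all were above the TRM-like samples. The log2 fold change was -3.44 (SE 0.77), just outside the threshold (edgeR adjusted p = 0.0514), and it was a DEG without TEff replicate 2 (adjusted p = 0.0497) or TRM-like replicate 3 (adjusted p = 0.00388). It was also a DEG with DESeq2 (adjusted p = 0.000102) and with the size factors of DESeq2 in edgeR (0.0481), but not with limma-voom (0.132). The fits with no filter and with a replicate block called it too (adjusted p = 6.65e-13 and 4.58e-12). Those fits shrank every gene's spread to a common trend, so they set aside the wide spread of its TEff samples. *Cd27* was at 112 ± 23.1 and 80.5 ± 24.2 CPM (SD, n = 3), with a log2 fold change of -0.48 (adjusted p = 0.409), and *Tnfrsf14* (HVEM) was at 17.8 ± 4.44 and 19.8 ± 2.66 CPM, with a log2 fold change of 0.16 (adjusted p = 0.772). *Cd40* had 1 to 4 counts in each sample. Among the DEGs with a ligand outside the 10, *Tnfrsf13c*, which encodes the BAFF receptor, was at 4.54 ± 0.313 and 9.82 ± 1.36 CPM (log2 fold change 1.11, adjusted p = 0.0113), and *Tnfrsf25*, which encodes DR3, had 10 to 22 and 3 to 5 counts (log2 fold change -2.27, adjusted p = 0.0341). The call of *Tnfrsf25* was kept without TRM-like replicate 3 and lost without any 1 of the other samples (adjusted p = 0.0633 to 0.178), and that of *Tnfrsf13c* was lost without TEff replicate 1, 2, or 3 or TRM-like replicate 2 (adjusted p = 0.0715, 0.0638, 0.0878, and 0.0565).

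**Figure D4:**
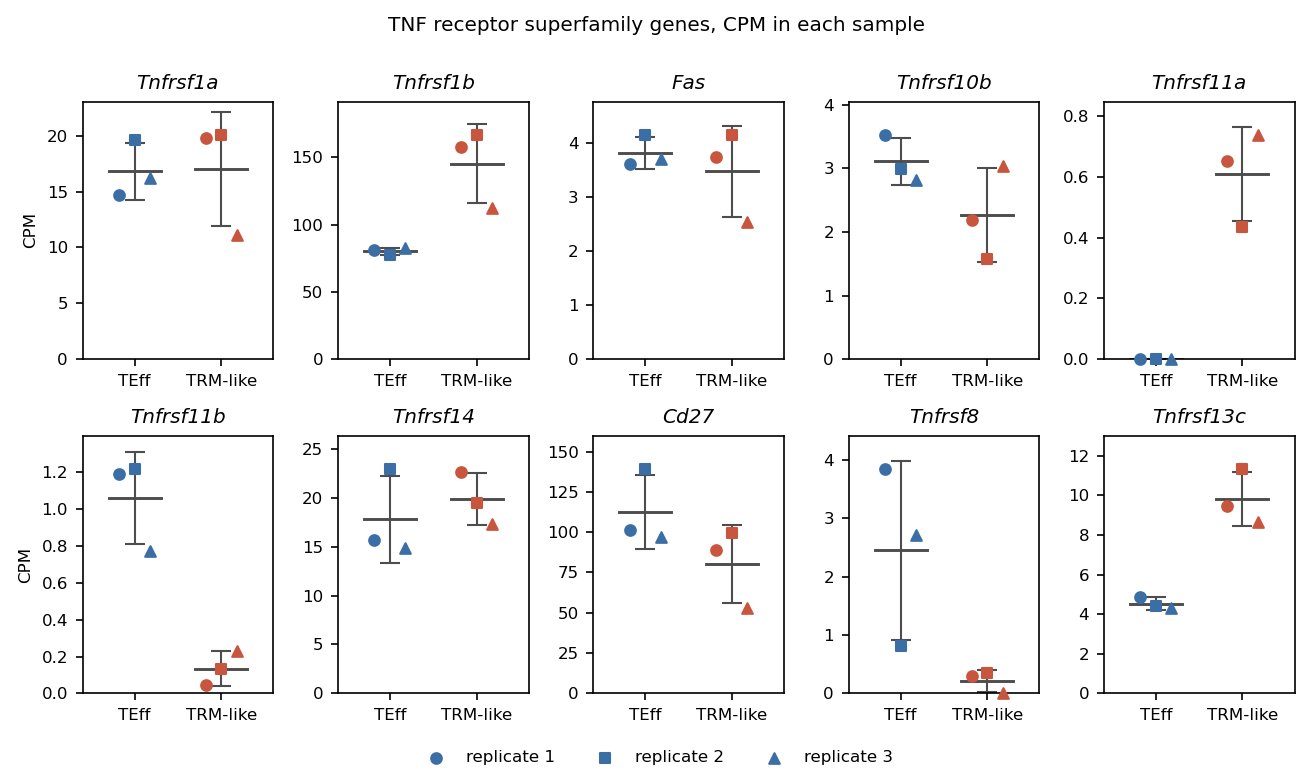
CPM (vertical axes, linear and starting at 0) of receptor genes of the superfamily in each TEff (blue) and TRM-like (red) sample, with marker shapes for replicate numbers, lines for means, and bars for SD (n = 3). *Tnfrsf1b*, *Tnfrsf11a*, and *Tnfrsf13c* are higher and *Tnfrsf11b* and *Tnfrsf8* lower in all 3 TRM-like samples, while *Tnfrsf1a*, *Fas*, *Tnfrsf10b*, *Tnfrsf14*, and *Cd27* overlap.

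Of the 37 genes of signaling from these receptors, all were tested, 2 were higher in TRM-like cells, and 0 were lower, or 5.41%, beside 3.01% of all genes tested. Their median log2 fold change was 0.10, beside 0.02 over all genes tested. *Traf4*, a TRAF family adaptor, was at 26.3, 24.1, and 27.4 CPM in the TEff samples and at 49.2, 55.2, and 63.6 CPM in the TRM-like samples. The groups did not overlap, with a log2 fold change of 1.11 (SE 0.14, edgeR adjusted p = 0.00367), and like *Tnfsf11* it was a DEG under all 14 alternatives. *Mlkl*, the pore-forming effector of necroptosis, rose from 12.5 ± 1.19 to 22.6 ± 1.27 CPM (SD, n = 3), with a log2 fold change of 0.86 (adjusted p = 0.0119). Its call was kept without TRM-like replicate 3 and lost without any 1 of the other samples (adjusted p = 0.0538 to 0.0845). Without TRM-like replicate 3, 4 of the 37 were DEGs, with *Nfkbie* and *Relb* added, in a fit that called 14.0% of all genes.

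The release and turnover of the ligands depend on other genes. Among 14 genes of ligand shedding and transport, 13 were tested and edgeR called 0, beside 3.01% of all genes, with 4 at an unadjusted p below 0.05, beside 14.8% of all genes. DESeq2 called 1 (*Furin*) and limma-voom 0, beside 4.83% and 2.82% of all genes. Their median log2 fold change was 0.24. *Adam17*, the protease that releases TNF from the membrane, was at 74.8 ± 5.58 and 71.8 ± 7.42 CPM (SD, n = 3), with a log2 fold change of -0.06 (edgeR adjusted p = 0.876). *Furin*, a proprotein convertase named here after its values were seen, was at 23.1 ± 6.52 and 44.6 ± 9.29 CPM, with a log2 fold change of 0.95 (adjusted p = 0.0652), and it was a DEG without TEff replicate 2 (adjusted p = 0.0469) or TRM-like replicate 3 (adjusted p = 0.000571). Of 12 genes for proteins that bind AU-rich or related elements in cytokine messages, 1 was lower and 0 were higher, or 8.33%, beside 3.01% of all genes, with a median log2 fold change of -0.13. This was *Zc3h12d*, of the regnase family of RNases, which fell from 44.2 ± 6.98 to 22.5 ± 4.95 CPM (log2 fold change -0.97, adjusted p = 0.0306). Its call was kept without TRM-like replicate 3 and lost without any 1 of the other samples (adjusted p = 0.0625 to 0.134).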

How the data were processed

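RNA sequencing of 6 samples of OT-I CD8+ T cells, 3 TEff and 3 TRM-like, was analysed, with groups taken from the sample labels. The authors trimmed reads with cutadapt 4.8, mapped them to GRCm39, counted them on GENCODE genes with Rsubread, and deposited the raw counts of each gene and its length, not normalized. DESeq2 1.40.2 is also named in the submitters' processing notes. The strand setting and the handling of reads that map to several places are not given in the sources used here. The study's methods name mouse IL-2 for the sequenced cells and human IL-2 for the expansion. They mention removal of a batch effect without naming the batch, and no batch was removed here.

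Symbols were matched for 56620 of 57126 genes in a later GENCODE release of the same build. Counts were tested with edgeR 4.0.16 (TMM, glmQLFit, glmQLFTest) in R 4.3.3, on genes that had 1 count or more in 3 or more samples, with Benjamini-Hochberg adjustment over all genes tested. DEGs had a log2 fold change beyond 0.58 in either direction and an adjusted p below 0.05, as in the study's methods. RPKM used the deposited gene lengths and the TMM-effective library sizes. The SE was taken from the F statistic, whose square root is the fold change over its SE. With 3 samples against 3, an exact permutation test cannot give a p below 0.1, so none was used.

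Alternatives were other tools (DESeq2 1.42.0, and limma-voom in limma 3.58.1), other scaling (size factors of DESeq2, or library totals), other filters (filterByExpr, a minimum of 10 counts in all samples, or none), a replicate block, and leaving out each sample. For single genes other than the 10 ligands they were added after seeing the data. The ligands and gene lists were chosen with earlier results of these data known. Named genes were the 10 ligands, the other ligands that passed the filter, the receptors of the 10, up to 6 DEGs with the smallest p in each list, the printed markers, and the outer neighbors of the *Ltb*, *Tnf*, and *Lta* cluster. *Adam17*, *Furin*, *Tnfsf18*, *Eda2r*, *Nfkbie*, and *Relb* fall outside this rule and were chosen after their values were seen.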

Additional observations from a re-analysis of the deposited data

How the results depend on the processing

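Among the 10 ligand genes, 2 were DEGs, 4 were DEGs with no filter, and 1 to 3 were DEGs with a sample left out. The shares over all genes tested in these fits were 3.01%, 4.42%, and 1.04% to 14.0%. Tool and scaling moved the call of no ligand gene: the 2 other tools, the 2 other scalings, and the 2 stricter filters each gave 2. Between 2.82% and 4.83% of all genes tested were called in those fits. Of the receptor genes that passed the filter, 5 were called with all samples, beside 3.01% of all genes. Among the 5 is *Tnfrsf11a*, which passed only through the TRM-like samples, so that its call is not a result. The number, in which other receptor genes could enter, was 2 with at least 10 counts in every sample, beside 3.91% of all genes tested. It was 8 with DESeq2 and 10 with no filter, beside 4.83% and 4.42%, and *Tnfrsf11a* is in both numbers. With a sample left out it was 0 to 9, beside 1.04% to 14.0%. The counts with a sample left out were 1 to 4 in signaling, 0 to 2 in shedding and transport, and 0 to 2 in AU-rich binding. They were 0 to 1 in the other ligands, and all stand beside the same 1.04% to 14.0% of all genes. Shedding and transport had 1 with DESeq2 and 1 with no filter, beside 4.83% and 4.42%. With a sample left out, the log2 fold change of *Lta* was -0.12 to 0.91, of *Ltb* -0.0765 to 0.22, of *Fas* -0.28 to 0.0389, of *Lst1* -0.0649 to 0.24, and of *Tnfrsf1a* -0.12 to 0.24. That of *Tnfrsf1a* was -0.0208 with limma-voom. The causes were not tested.

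Whether same-numbered samples pair could not be decided. Their deviations from their group's mean correlated at -0.332, 0.345, and 0.416 for numbers 1, 2, and 3, and only number 3 correlated best with its own. With 3 samples per group these deviations depend on each other, so that the correlations cannot exclude a pairing. With number as a replicate block, 3 ligand genes, 11 receptor genes (*Tnfrsf11a* among them), and 1 shedding and transport gene were DEGs, beside 7.78% of all genes tested. *Tnfsf8* was then a DEG at -0.70, and *Tnfrsf1a* was at -0.0192. Over all genes, 786 DEGs became 2034 with the replicate block, 1868 with no filter, 1264 with DESeq2, and 263 to 3579 with a sample left out. With no filter the median log2 fold change of all genes was 0.38, and the fits with no filter and with the block shrank every gene's spread to a common trend. *Cd70* and *Cd40lg*, at up to 5 counts per sample, are limited by depth.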
